A study of Mus musculus with 2 samples.

Results

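The genes described here are the Wnt ligands, their receptors, the secreted proteins that hold them back or strengthen them, and genes that Wnt signaling switches on. They were taken by symbol: every Wnt, Frizzled (Fzd), Sfrp, Dkk and R-spondin (Rspo) gene, *Lgr4*, *Lgr5* and *Lgr6*, plus *Lrp5*, *Lrp6*, *Axin2*, *Lef1*, *Tcf7*, *Notum*, *Nkd1*, *Nkd2* and *Wif1*. This gave 53 genes, namely 19 ligands, 12 receptors, 10 secreted antagonists, 4 R-spondins, 3 R-spondin receptors, 2 transcription factors and 3 feedback targets. Wnt proteins are secreted lipid-modified ligands that bind Frizzled receptors; together with the co-receptors LRP5 and LRP6 they stabilize β-catenin, which then acts with TCF and LEF factors on target genes, while other Wnts act through Frizzled without β-catenin. R-spondins bind LGR receptors and keep Frizzled at the cell surface, and antagonists either bind the ligands, block LRP, or, in the case of NOTUM, remove the lipid from the ligand. In the lung, stromal Wnt ligands act on alveolar epithelial type 2 (AT2) cells and on the mesenchyme itself, and WNT5A and WNT11 are best known for signaling without β-catenin.

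The study asked what loss of *Hhip*, an inhibitor of hedgehog ligands, does in the neonatal lung. Both mice carried *Gli1creERT/+* and *Hhipflox/flox*, and both were analyzed at postnatal day 14. The *Gli1 HHIPCKO* mouse was given 3 daily injections of tamoxifen (100 mg/kg) starting at birth, so that *Hhip* was deleted in cells of the *Gli1* lineage and in no others by design, and the control mouse was given oil on the same days. Stromal cells, sorted as negative for CD31, CD45 and CD326, were mixed with epithelial cells at 3 parts to 1 and run on the 10x Genomics platform; 151 and 98 endothelial-like and 642 and 257 immune-like cells (control and *Gli1 HHIPCKO*) were nevertheless present. With 1 mouse per condition the difference between conditions could not be tested, so every ratio below compares these 2 libraries. Ranges in parentheses are exact 95% intervals, Poisson for levels and binomial for ratios, and they describe counting error alone. Log2 ratios set *Gli1 HHIPCKO* over control.

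The control library held 10999 cells and 43291709 UMIs (unique molecular identifiers, 1 for each captured transcript), and the *Gli1 HHIPCKO* library 12350 cells and 52338969 UMIs. Filters on genes per cell and mitochondrial UMIs kept 10917 and 12115 cells, with medians of 3537 and 3774 UMIs per cell. The members gave 51420 UMIs in control and 69349 in *Gli1 HHIPCKO*, which is 1194 and 1339.9 UMIs per 1000000 (CPM). The sample labels name a 3′ kit, while the design text and the methods of the study name a 5′ kit, and the counts alone do not show which end of a transcript was read; either way a transcript is counted at 1 end and no scaling by length was needed. Levels are therefore compared between cells and libraries for the same gene, and where genes are set side by side, as ranks, sums or shares, the scale is counted UMIs and not amounts of transcript.

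*Hhip* was read as a check of the labels. It was at 2071 CPM for control and 352 CPM for *Gli1 HHIPCKO* in cells resembling ductal myofibroblasts (DMF-like), at 526 CPM for control and 188 CPM for *Gli1 HHIPCKO* in cells resembling alveolar myofibroblasts (ALMF-like), and at 2120.4 CPM for control and 640.5 CPM for *Gli1 HHIPCKO* in peribronchial and airway smooth muscle-like cells. These are log2 ratios of -2.55, -1.49 and -1.73, so *Hhip* was lower in the library labelled as deleted, but the labels do not give the deleted exon, so whether the UMIs lie in the deleted part is not known. *Gli1*, a hedgehog target, was at 4.15 CPM for control and 31.1 CPM for *Gli1 HHIPCKO* in DMF-like cells. The libraries also differed in *Xist*, a transcript of the inactive X chromosome, with a UMI in 0.110% of cells from control but 56.7% from *Gli1 HHIPCKO*, so that a difference of sex cannot be told apart from the deletion or from tamoxifen itself, which the control mouse did not receive. They shared 185 cell barcodes, 1.69% of those kept from control and 1.53% from *Gli1 HHIPCKO*, of which 24 fell in the same cell class.

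Cells were clustered without the members, and clusters were named by marker genes as resembling a known type. ALMF-like cells numbered 1473 in control and 952 in *Gli1 HHIPCKO*, DMF-like cells 1277 and 1714, alveolar fibroblast-like cells 507 and 1772, and AT2-like cells 2957 and 2790. Of the 39 clusters 13 stayed unnamed, with 17.0% of cells from control and 17.5% from *Gli1 HHIPCKO*, partly because they carried markers of more than 1 type. The myofibroblast classes were made of clusters that each came mostly from 1 library. Of the ALMF-like clusters, that led by *Stc1* held 1014 control and 67 *Gli1 HHIPCKO* cells, that led by *Lnx1* 14 and 820, and that led by *Fos* 445 and 65. Of the DMF-like clusters, that led by *Efnb2* held 1257 control and 45 *Gli1 HHIPCKO* cells, that led by *Ace* 11 and 1122, and that led by *Socs3* 9 and 547. The *Lnx1* cluster, with most *Gli1 HHIPCKO* ALMF-like cells, scored 0.575 on ALMF and 0.484 on DMF markers and had 1 ALMF marker among its 10 leading genes, so the *Gli1 HHIPCKO* side of the ALMF-like ratios rests on a cluster at the edge of the naming rule. The *Socs3* cluster had 0 DMF markers among its leading genes. The *Fos* cluster had 1 ALMF marker among them and scored 0.676 on ALMF and 0.485 on DMF markers. The vascular smooth muscle-like cluster had 0 markers of its class among them and scored 0.489. In clusters that came mostly from 1 library, cell state and library cannot be told apart, so for some members values within clusters are given beside the class values.

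Immediate early genes, which respond to tissue dissociation, led the *Fos* and *Socs3* clusters. The 35 listed genes summed to 16974 CPM for control and 12114 CPM for *Gli1 HHIPCKO* ALMF-like cells, and to 7964 and 20853 CPM in DMF-like cells. Of the 32 with enough UMIs, 18 were at least 2-fold higher and 1 at least 2-fold lower in *Gli1 HHIPCKO* DMF-like cells, against 2.94% and 2.2% of all genes. In ALMF-like cells 0 were higher and 8 lower, against 2.76% and 1.65%. Apart from *Myc*, these genes were left in the clustering. The *Fos* cluster gave 445 control and 65 *Gli1 HHIPCKO* cells to the ALMF-like class, and the *Socs3* cluster 9 and 547 to the DMF-like class. These directions thus cannot be told apart from the make-up of the classes. The most abundant, *Cebpd*, was at 1395 CPM for control and 2159 CPM for *Gli1 HHIPCKO* in DMF-like cells and at 1822 CPM for control and 2392 CPM for *Gli1 HHIPCKO* in ALMF-like cells, and none of the 35 lacked UMIs in either class. The sum was thus lower in *Gli1 HHIPCKO* ALMF-like and higher in *Gli1 HHIPCKO* DMF-like cells although single genes such as *Cebpd* were higher in both, and the part of these genes in the differences below was not tested.

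Red cell-like cells, 245 in control and 233 in *Gli1 HHIPCKO* with medians of 5055 and 5524 UMIs, served as a reference level for free RNA. Members reached 312 CPM there in control and 567 CPM for *Gli1 HHIPCKO*. The most abundant stromal ligands made up much of this, with *Wnt5a* at 48.9 CPM for control and 128 CPM for *Gli1 HHIPCKO* and *Wnt11* at 65.0 CPM for control and 57.5 CPM for *Gli1 HHIPCKO*. A member at or below its level in these cells is read as background, and background below means this reference level. AT2-like cells held far less *Wnt5a* and *Wnt11* than red cell-like cells. The reference can thus overstate free RNA in other classes, and subtracting it can take away too much. Of the 404 cells of the larger red cell-like cluster, 48 were among those nearest to simulated doublets, 35 from control and 13 from *Gli1 HHIPCKO*. Whether doublets added to these levels was not tested.

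A member was counted in a class where it had 50 or more UMIs over both libraries, and called where its CPM differed at least 2-fold. In ALMF-like cells 21 members could be counted, of which 2 were at least 2-fold higher and 4 at least 2-fold lower in *Gli1 HHIPCKO*, against 2.76% and 1.65% of all 10031 genes counted there. In DMF-like cells it was 1 higher and 4 lower of 22, against 2.94% and 2.2% of 10298 genes. The share of members that were lower was thus 19.0% and 18.2% in the myofibroblast classes, above the share of all genes. *Notum*, *Wif1* and *Fzd4* were among the lower members of both classes, with *Lef1* in ALMF-like and *Lgr5* in DMF-like cells. Several of these calls were near background or were not found within clusters, as given with each gene below. With the red cell-like level subtracted the gap was smaller, at 4 of 21 and 6 of 22 members against 13.9% and 15.5% of all genes. In ALMF-like cells the gap also depended on other settings, with 1 of 19 members lower at resolution 2, against 7.8% of all genes, and 2 of 19 under a stricter cell filter, against 8.64%. The median log2 ratio of the members was -0.018 and -0.09, that of all genes 0.0035 and -0.018, and members differed in both directions.

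In adventitial fibroblast-like cells 3 of 16 members were higher and 1 lower, against 3.08% and 0.869% of all genes. Alveolar fibroblast-like cells had 1 higher and 1 lower of 24, against 1.91% and 1.95%, and their members' median of -0.26 lay below the median of all genes of -0.0098. Peribronchial and airway smooth muscle-like cells had 1 higher and 0 lower of 10, against 2.8% and 2.28%. These counts of 1 to 3 are too small to read as a property of the pathway in those cells. AT2-like cells had 1 higher and 1 lower of 19, against 1.5% and 1.06%. No member was called in vascular smooth muscle-like cells (9 counted, 1.99% of all genes higher and 1.13% lower), pericyte-like cells (13, 1.87% and 0.716%), mesothelial-like cells (15, 2.27% and 1.47%) or ciliated-like cells (8, 1.05% and 1.24%). In all, 13 members were called in at least 1 of these 10 classes, in 20 combinations of member and class.

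**Figure D1:**
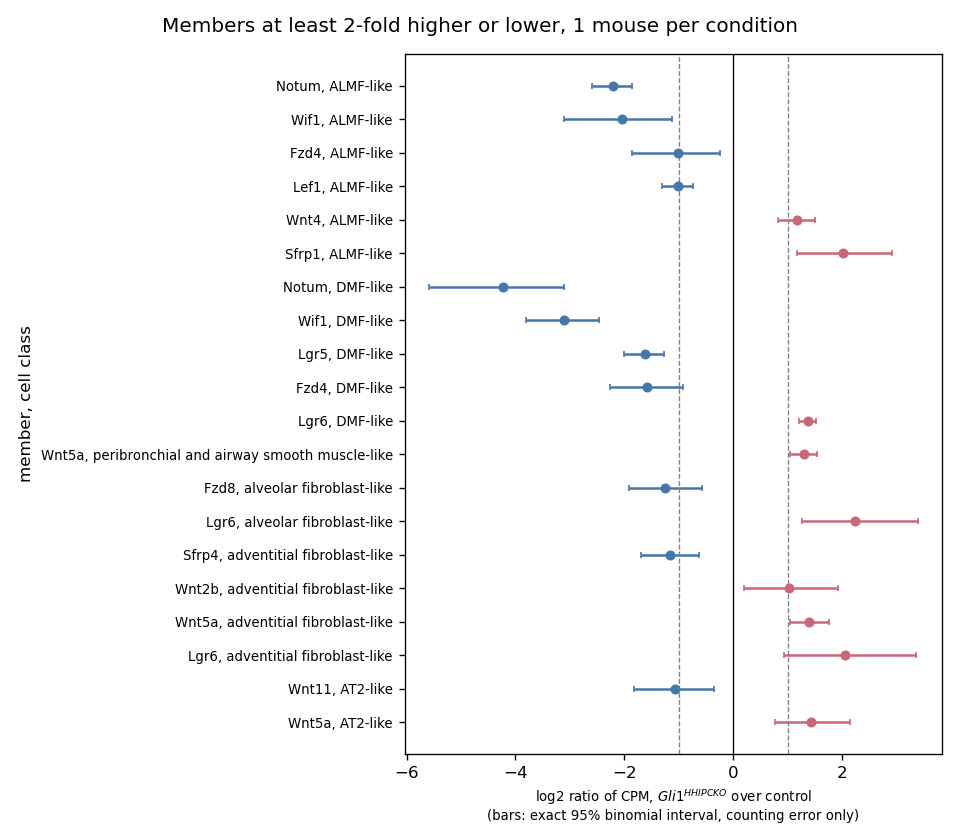
Log2 ratio of CPM, *Gli1 HHIPCKO* over control (horizontal axis), for the 20 combinations of member and cell class (vertical axis) at least 2-fold apart; points are ratios, bars exact 95% binomial intervals for counting error, and dashed lines mark 2-fold. The lowest points are *Notum* and *Wif1* in DMF-like cells at -4.23 and -3.11, and the highest is *Lgr6* in alveolar fibroblast-like cells at 2.23, where the class level was close to that of red cell-like cells.

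The ligands with the most UMIs were *Wnt5a* (ENSMUSG00000021994, chr14:28504750-28527448, plus strand) and *Wnt11* (ENSMUSG00000015957, chr7:98835112-98855195, plus strand). Positions here and below are those of GENCODE vM21 on GRCm38. *Wnt5a* was highest in DMF-like cells, at 699 CPM from 2362 UMIs for control and 1132 CPM from 6587 UMIs for *Gli1 HHIPCKO*, and the log2 ratio was 0.69 (0.63 to 0.76). In ALMF-like cells it was at 364 CPM from 1810 UMIs for control and 719 CPM from 2137 UMIs for *Gli1 HHIPCKO*, a ratio of 0.98 (0.89 to 1.07). Peribronchial and airway smooth muscle-like cells had 297 CPM (256 to 344) for control and 729 CPM (670.1 to 791) for *Gli1 HHIPCKO*. *Wnt5a* was thus higher in *Gli1 HHIPCKO* in each of these contractile classes, and it passed 2-fold only in the peribronchial and airway smooth muscle-like cells, at 1.29 (1.05 to 1.54). It also passed 2-fold in adventitial fibroblast-like cells, at 65.7 CPM for control and 173 CPM for *Gli1 HHIPCKO* and a ratio of 1.39 (1.03 to 1.77), but there its level was within 1.5-fold of that in red cell-like cells of the same library, and the call held under 9 of 13 alternatives. In AT2-like cells, where *Wnt5a* was called at 1.71 CPM for control and 4.61 CPM for *Gli1 HHIPCKO*, it stood far below the red cell-like level.

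*Wnt5a* was detected in 74.2% of control and 92.4% of *Gli1 HHIPCKO* DMF-like cells, whose median depths were 2526 and 3208 UMIs. After each cell was thinned to 2000 UMIs, which left out 295 shallower control and 205 shallower *Gli1 HHIPCKO* cells, the shares were 68.1% and 85.6%. The thinned share in ALMF-like cells was 48.5% for control and 67.5% for *Gli1 HHIPCKO* (unthinned 59.6% and 77.2%; 132 and 125 cells left out). Red cell-like cells had thinned shares of 5.63% and 16.5% (unthinned 11.4% and 26.6%; 14 and 15 left out), far below the myofibroblast-like shares in both libraries but also higher in *Gli1 HHIPCKO*. Within clusters the difference was smaller in most cases. The *Efnb2* cluster of DMF-like cells had 698 and 899.8 CPM of *Wnt5a*, log2 ratio 0.37 (0.04 to 0.67), and the *Fos* cluster of ALMF-like cells had 509 and 501 CPM. Of the ALMF-like and DMF-like clusters with enough cells of both libraries, only the *Stc1* cluster, at 284 and 573 CPM from 903 and 106 UMIs, held a 2-fold difference.

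*Wnt11* was at 653 CPM from 3245 UMIs for control and 556 CPM from 1653 UMIs for *Gli1 HHIPCKO* in ALMF-like cells, and the log2 ratio was -0.23 (-0.32 to -0.15). In DMF-like cells it was at 735 CPM for control and 544 CPM for *Gli1 HHIPCKO*, a ratio of -0.43 (-0.51 to -0.36), and in peribronchial and airway smooth muscle-like cells at 151 CPM for control and 93.3 CPM for *Gli1 HHIPCKO*, a ratio of -0.70 (-1.16 to -0.24). Unlike *Wnt5a*, *Wnt11* was lower in *Gli1 HHIPCKO* in all 3 of these classes, though by less than 2-fold. In ALMF-like cells this direction turned, to 0.11, with each library clustered on its own. In peribronchial and airway smooth muscle-like cells the *Gli1 HHIPCKO* level was within 2-fold of the red cell-like level. The size of the ratio in that class was thus not clear of background. The *Wnt11* call in AT2-like cells, 3.28 CPM for control and 1.56 CPM for *Gli1 HHIPCKO*, lay far below the red cell-like level and held under 9 of 13 alternatives.

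The make-up of the ligand UMIs also differed between the libraries. *Wnt5a* made up 34.1% of the ligand UMIs of ALMF-like cells in control and 52.3% in *Gli1 HHIPCKO*, 47.3% and 64.5% in DMF-like cells, and 59.0% and 81.4% in peribronchial and airway smooth muscle-like cells. *Wnt11* made up 61.1% and 40.5%, 49.6% and 31.0%, and 30.0% and 10.4% of them in the same order. The balance between these ligands lay further toward *Wnt5a* in *Gli1 HHIPCKO* in each class. Red cell-like cells also had more *Wnt5a* and less *Wnt11* in *Gli1 HHIPCKO*, and the part of background in these shares was not tested. The 19 ligands summed to 1069.6 CPM for control and 1374 CPM for *Gli1 HHIPCKO* ALMF-like cells, and to 1479.8 and 1755 CPM in DMF-like cells. In alveolar fibroblast-like cells, where *Wnt2* was the leading ligand, they summed to 483 and 548 CPM.

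*Wnt2* (ENSMUSG00000010797, chr6:17988940-18030585, minus strand), a ligand of the lung mesenchyme that acts through β-catenin, was measured by the study with quantitative PCR and was therefore read in each class. It was found mainly in alveolar fibroblast-like cells, at 204 CPM from 364 UMIs for control and 221 CPM from 1459 UMIs for *Gli1 HHIPCKO*, and the log2 ratio was 0.12 (-0.05 to 0.29). The interval includes 0 and leaves out a 2-fold difference in either direction. The thinned share of alveolar fibroblast-like cells with *Wnt2* was 33.4% for control and 33.7% for *Gli1 HHIPCKO* (unthinned 44.4% and 47.2%; 112 and 337 cells left out), against 0.433% and 2.29% of red cell-like cells (2.04% and 6.01% unthinned). Mesothelial-like cells had 21.1 CPM for control and 41.0 CPM for *Gli1 HHIPCKO*, from 24 and 41 UMIs. The PCR primers of the study are shown because they define which part of *Wnt2* was read there; both matched transcript Wnt2-201 of GENCODE vM21 (2255 bases, 5 exons), at bases 274 to 293 and 378 to 399, for a product of 126 bases, and the reverse primer spans the junction of exons 1 and 2.
Forward: ctgatgtagacgcaaggggg
Reverse: cctgtagctctcatgtaccacc

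*Wnt4* (ENSMUSG00000036856, chr4:137277489-137299726, plus strand), a ligand needed for kidney development, was called in ALMF-like cells. It was at 25.4 CPM from 126 UMIs for control and 56.8 CPM from 169 UMIs for *Gli1 HHIPCKO* there, and the log2 ratio was 1.16 (0.82 to 1.51), and it was above the red cell-like level of 2.92 and 14.4 CPM in both. The *Lnx1* cluster, almost all *Gli1 HHIPCKO*, had 52.8 CPM, and the *Fos* cluster had 16.5 CPM for control and 95.7 CPM for *Gli1 HHIPCKO*. In the *Stc1* cluster it was at 30.5 and 54.1 CPM, with a ratio of 0.83 (-0.28 to 1.77). *Wnt4* was thus higher in *Gli1 HHIPCKO* within the *Fos* cluster, while the *Stc1* cluster did not settle it. The call in ALMF-like cells held under 11 of 16 alternatives, the lowest ratio being 0.34 with each library clustered on its own. Over both libraries it was highest in pericyte-like cells, at 124 CPM for control and 179 CPM for *Gli1 HHIPCKO*, a ratio of 0.53 (0.19 to 0.89), and it was at 163 CPM for control and 142 CPM for *Gli1 HHIPCKO* in ciliated-like and 54.9 CPM for control and 79.5 CPM for *Gli1 HHIPCKO* in alveolar fibroblast-like cells.

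Of the other ligands, *Wnt2b* was called in adventitial fibroblast-like cells, at 13.4 CPM from 17 UMIs for control and 27.4 CPM from 44 UMIs for *Gli1 HHIPCKO*, and the log2 ratio was 1.03 (0.19 to 1.93). The call held under 7 of 13 alternatives. No *Wnt2b* UMI was seen in red cell-like cells of either library. *Wnt9a* was at 39.0 CPM for control and 58.8 CPM for *Gli1 HHIPCKO* in peribronchial and airway smooth muscle-like cells (log2 ratio 0.59, -0.15 to 1.37). In DMF-like cells it was at 33.5 CPM for control and 58.3 CPM for *Gli1 HHIPCKO* (log2 ratio 0.80, 0.49 to 1.12). It was thus higher in *Gli1 HHIPCKO* DMF-like cells by less than 2-fold, while the interval of the former class includes 0. Under the stricter cell filter the ratio in that former class was 1.05, from 24 and 58 UMIs. With each library clustered on its own, the peribronchial and airway smooth muscle-like class held 106 control and 271 *Gli1 HHIPCKO* cells, and ratios there rose to 3.61 for *Wnt9a* and 6.64 for *Wnt5a*, from 2 and 3 control UMIs, and to 2.11 for *Nkd1* and 1.97 for *Lgr6*. *Wnt5b* was highest in pericyte-like cells, at 50.7 CPM for control and 64.6 CPM for *Gli1 HHIPCKO* (log2 ratio 0.35, -0.21 to 0.93), and was at 37.5 CPM for control and 34.1 CPM for *Gli1 HHIPCKO* in alveolar fibroblast-like cells. *Wnt7b*, a ligand of lung epithelium, was at 6.07 CPM for control and 3.77 CPM for *Gli1 HHIPCKO* in AT2-like cells (log2 ratio -0.69, -1.18 to -0.21). The remaining 11 ligands had fewer than 50 UMIs in every class. Of these, *Wnt6* had the most, 93 UMIs in control and 139 in *Gli1 HHIPCKO* over all cells kept, and *Wnt8a*, *Wnt8b* and *Wnt9b* had none, which at this depth allows up to 3 UMIs per library.

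**Figure D2:**
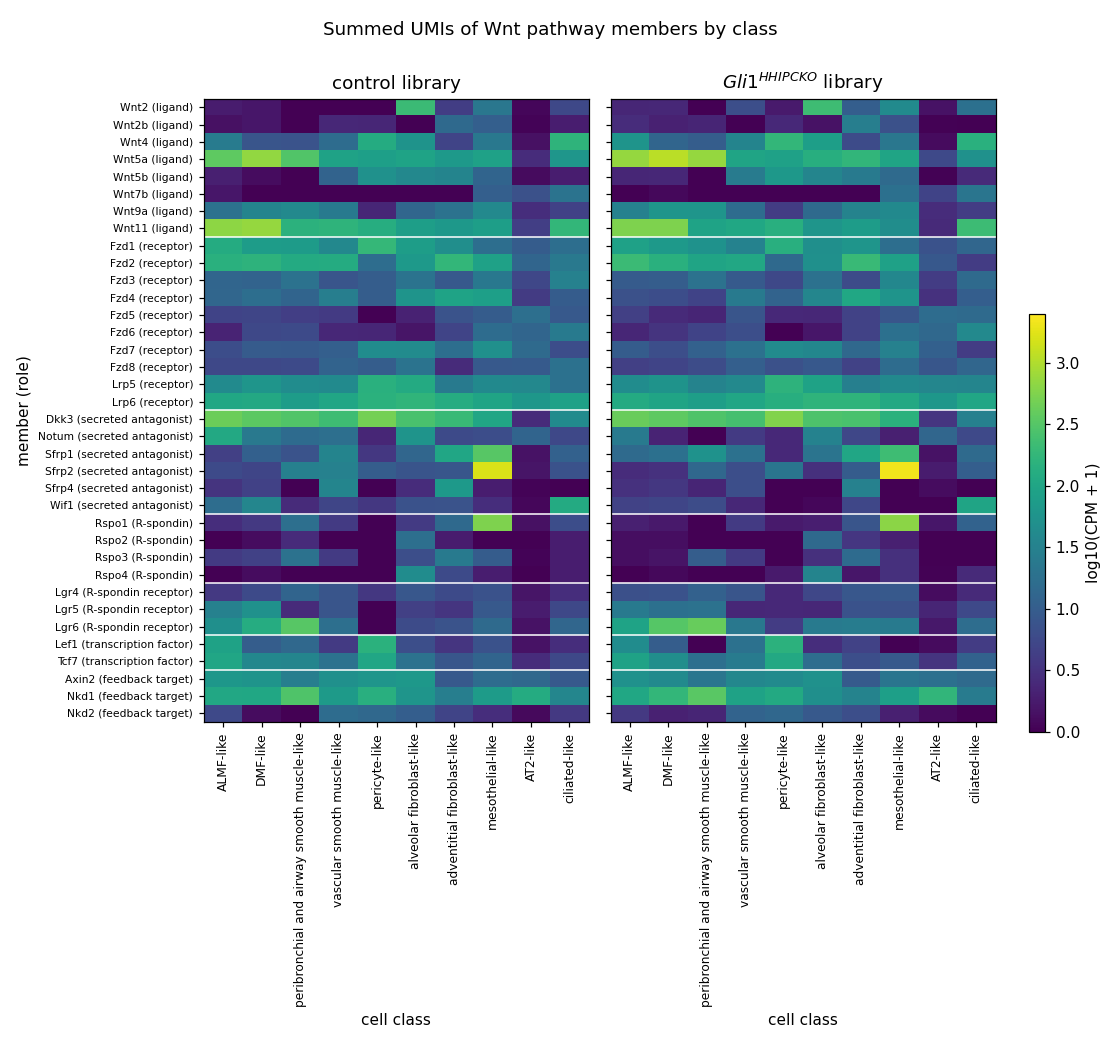
Heat map of log10(CPM + 1) from summed UMIs for the 36 members with 50 or more UMIs in a class (vertical axis, grouped by role) in 10 cell classes (horizontal axis), control left and *Gli1 HHIPCKO* right. *Wnt5a* and *Wnt11* stand out in the ALMF-like and DMF-like columns of both libraries, *Sfrp2* and *Rspo1* in mesothelial-like cells, and *Lgr6* in peribronchial and airway smooth muscle-like cells at 328 and 412 CPM.

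Among the receptors, Frizzled genes were spread over all classes, and their sum differed by less than 2-fold. The 10 Frizzled genes summed to 306 CPM for control and 324 CPM for *Gli1 HHIPCKO* ALMF-like cells, to 279 and 238 CPM in DMF-like cells, and to 281 and 197 CPM in alveolar fibroblast-like cells. *Fzd4* (ENSMUSG00000049791, chr7:89404355-89413134, plus strand), a receptor for Wnts and for norrin, was the exception in both myofibroblast classes. It was at 12.3 CPM from 61 UMIs for control and 6.05 CPM from 18 UMIs for *Gli1 HHIPCKO* in ALMF-like cells, and the log2 ratio was -1.02 (-1.87 to -0.24), and at 16.0 CPM from 54 UMIs for control and 5.33 CPM from 31 UMIs for *Gli1 HHIPCKO* in DMF-like cells, a ratio of -1.59 (-2.27 to -0.92). The *Gli1 HHIPCKO* values lay within 2-fold of the red cell-like level of 3.42 CPM, so *Fzd4* in *Gli1 HHIPCKO* myofibroblast-like cells was near background. Within clusters no difference could be shown: the *Fos* cluster had a log2 ratio of 0.19 (-2.22 to 1.98) from 17 and 3 UMIs, and the *Stc1* and *Efnb2* clusters each had 1 *Gli1 HHIPCKO* UMI. The ALMF-like call held under 10 of 16 alternatives and the DMF-like call under 15 of 15. *Fzd4* was highest in endothelial-like cells, at 199.7 CPM for control and 286 CPM for *Gli1 HHIPCKO*, a class the sort was meant to exclude.

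*Fzd8* was called in alveolar fibroblast-like cells, at 18.5 CPM from 33 UMIs for control and 7.74 CPM from 51 UMIs for *Gli1 HHIPCKO*, and the log2 ratio was -1.26 (-1.92 to -0.58). *Fzd1* was highest in pericyte-like cells, at 181 CPM for control and 140.2 CPM for *Gli1 HHIPCKO* (log2 ratio -0.37, -0.69 to -0.04), and *Fzd2* in adventitial fibroblast-like cells, at 177 CPM for control and 202 CPM for *Gli1 HHIPCKO* (log2 ratio 0.19, -0.06 to 0.44). *Fzd7*, at 44.2 CPM for control and 43.0 CPM for *Gli1 HHIPCKO* in pericyte-like cells, and *Fzd3*, at 22.0 CPM for control and 37.0 CPM for *Gli1 HHIPCKO* in mesothelial-like cells, were likewise not called. Epithelial classes carried *Fzd5*, at 16.5 CPM for control and 14.9 CPM for *Gli1 HHIPCKO* in AT2-like cells (log2 ratio -0.15, -0.41 to 0.11), and *Fzd6*, at 24.6 CPM for control and 38.5 CPM for *Gli1 HHIPCKO* in ciliated-like cells. Apart from *Fzd8*, none of these receptors differed 2-fold in the class named. Over both libraries *Fzd6* was higher in endothelial-like than in ciliated-like cells, at 50.6 and 29.6 CPM. The co-receptor *Lrp6*, which is phosphorylated when Wnt binds, was at 169 CPM for control and 162 CPM for *Gli1 HHIPCKO* in alveolar fibroblast-like cells (log2 ratio -0.06, -0.25 to 0.13), and *Lrp5* was at 142 CPM for control and 158 CPM for *Gli1 HHIPCKO* in pericyte-like cells (log2 ratio 0.16, -0.18 to 0.50). *Fzd9* and *Fzd10* had fewer than 50 UMIs in every class.

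The R-spondins, which raise the response of a cell to Wnt, came from classes other than the myofibroblasts. *Rspo1* was at 545 CPM from 619 UMIs for control and 636 CPM from 636 UMIs for *Gli1 HHIPCKO* in mesothelial-like cells, and the log2 ratio was 0.22 (0.06 to 0.38). *Rspo4* was at 43.7 CPM for control and 33.5 CPM for *Gli1 HHIPCKO* and *Rspo2* at 16.3 CPM for control and 13.4 CPM for *Gli1 HHIPCKO* in alveolar fibroblast-like cells, with ratios of -0.38 (-0.76 to 0.01) and -0.28 (-0.90 to 0.37). *Rspo3* was at 24.5 CPM for control and 14.3 CPM for *Gli1 HHIPCKO* in adventitial fibroblast-like cells (log2 ratio -0.78, -1.62 to 0.05). The *Rspo3* ratio ran from -1.65 after thinning to 0.21 with each library clustered on its own, so no direction is read. No R-spondin was called, and in DMF-like cells the 4 together reached only 6.81 CPM for control and 1.72 CPM for *Gli1 HHIPCKO*, from few UMIs. In ALMF-like cells they summed to 4.63 CPM for control and 1.68 CPM for *Gli1 HHIPCKO*, from 23 and 5 UMIs. The sum in peribronchial and airway smooth muscle-like cells was 35.7 CPM for control and 8.95 CPM for *Gli1 HHIPCKO*, from 22 and 7 UMIs.

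Their receptors differed more. *Lgr6* (ENSMUSG00000042793, chr1:134983301-135105276, minus strand), a receptor for R-spondins that also marks airway smooth muscle, was at 125 CPM from 421 UMIs for control and 321 CPM from 1869 UMIs for *Gli1 HHIPCKO* in DMF-like cells, and the log2 ratio was 1.37 (1.21 to 1.52). *Lgr5* (ENSMUSG00000020140, chr10:115450311-115587780, minus strand), a close relative known as a stem cell marker in the gut, was at 52.1 CPM from 176 UMIs for control and 16.8 CPM from 98 UMIs for *Gli1 HHIPCKO* in the same cells, a ratio of -1.63 (-2.00 to -1.27). These receptors for the same ligands thus lay on opposite sides of 2-fold in DMF-like cells. *Lgr6* made up 68.7% of the UMIs of the 3 receptor genes in control and 93.3% in *Gli1 HHIPCKO*, and *Lgr5* 28.7% and 4.89%. In ALMF-like cells *Lgr6* was at 48.5 CPM for control and 93.8 CPM for *Gli1 HHIPCKO* (log2 ratio 0.95, 0.70 to 1.21) and *Lgr5* at 30.6 CPM for control and 23.5 CPM for *Gli1 HHIPCKO* (log2 ratio -0.38, -0.81 to 0.04). Within the *Stc1* cluster *Lgr6* was at 25.5 CPM for control and 21.6 CPM for *Gli1 HHIPCKO* (log2 ratio -0.23, -2.14 to 1.18). Within the *Fos* cluster it was at 88.7 and 73.6 CPM (log2 ratio -0.27, -1.02 to 0.41), so neither showed the class difference. *Lgr6* was highest in peribronchial and airway smooth muscle-like cells, at 328 CPM (285 to 377) for control and 412 CPM (368 to 459) for *Gli1 HHIPCKO*, where the ratio was 0.33. *Lgr4* reached 50 UMIs only in DMF-like cells, at 4.74 CPM for control and 6.19 CPM for *Gli1 HHIPCKO* (log2 ratio 0.38, -0.50 to 1.33).

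By cells, *Lgr6* was found in 23.9% of control and 57.2% of *Gli1 HHIPCKO* DMF-like cells, and in 19.2% and 46.2% after thinning. Red cell-like cells had *Lgr6* in 3.67% and 9.87% of cells, 0.866% and 5.05% after thinning, so most of the DMF-like share was above background in both libraries. *Lgr5* was found in 9.63% of control and 4.38% of *Gli1 HHIPCKO* DMF-like cells, and in 7.54% and 2.78% after thinning, against 0.433% and 0% of thinned red cell-like cells (1.63% and 0.429% unthinned). Of the 697 thinned *Gli1 HHIPCKO* DMF-like cells with *Lgr6*, 16 also had *Lgr5*; in control it was 13 of 189. Within the *Efnb2* cluster, *Lgr6* was at 122 CPM for control and 162 CPM in the 45 *Gli1 HHIPCKO* cells, a ratio of 0.41 (-0.41 to 1.13), and *Lgr5* at 52.8 and 30.3 CPM. The larger *Lgr6* level came from the *Ace* cluster, at 384 CPM, and the *Socs3* cluster, at 235 CPM, both almost all *Gli1 HHIPCKO*. How much of the class difference in *Lgr6* lay within clusters cannot be told from the 16 *Gli1 HHIPCKO* UMIs of the *Efnb2* cluster, and what set the clusters apart was not tested. Under 13 of 15 alternatives *Lgr6* in DMF-like cells stayed past 2-fold, the lowest ratio being 0.92.

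*Lgr6* was also called in alveolar fibroblast-like cells, at 5.04 CPM for control and 23.7 CPM for *Gli1 HHIPCKO*, and in adventitial fibroblast-like cells, at 6.33 CPM for control and 26.2 CPM for *Gli1 HHIPCKO*. Red cell-like cells had 8.03 CPM for control and 25.3 CPM for *Gli1 HHIPCKO*, so both class levels were close to background. Of the 156 *Lgr6* UMIs of *Gli1 HHIPCKO* alveolar fibroblast-like cells, 140 came from a cluster led by *Cpm* and *Epha1* with a median of 6436 UMIs per cell, where *Lgr6* was at 21.1 CPM for control and 113 CPM for *Gli1 HHIPCKO*. This cluster scored 0.645 on alveolar fibroblast and 0.472 on DMF markers, and 208 of its 246 cells were among those nearest to simulated doublets, so it cannot be told apart from doublets. Leaving such cells out brought the class to 1 and 24 *Lgr6* UMIs, and no *Lgr6* difference is read in these fibroblasts.

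The largest differences among all members were in secreted antagonists. *Notum* (ENSMUSG00000042988, chr11:120653788-120661175, minus strand), an extracellular enzyme that inactivates Wnt ligands and is itself switched on by β-catenin, was at 111 CPM (101 to 120.1) for control and 23.9 CPM (18.6 to 30.1) for *Gli1 HHIPCKO* in ALMF-like cells, and the log2 ratio was -2.21 (-2.59 to -1.85). In DMF-like cells it was at 22.5 CPM from 76 UMIs for control and 1.20 CPM from 7 UMIs for *Gli1 HHIPCKO*, a ratio of -4.23 (-5.59 to -3.11). *Notum* was thus lower in *Gli1 HHIPCKO* in both myofibroblast classes, but the DMF-like levels were not clear of background. Red cell-like cells had 11.7 CPM for control and 3.42 CPM for *Gli1 HHIPCKO*, so the DMF-like level was within 2-fold of background in control and below it in *Gli1 HHIPCKO*, and part of that ratio may be background. With the red cell-like level subtracted, 36.6 DMF-like UMIs were left in control and none in *Gli1 HHIPCKO*. In alveolar fibroblast-like cells it was at 57.2 CPM for control and 31.0 CPM for *Gli1 HHIPCKO* (log2 ratio -0.89, -1.23 to -0.53), and in AT2-like cells at 11.6 CPM for control and 12.3 CPM for *Gli1 HHIPCKO* (log2 ratio 0.09, -0.21 to 0.39), which was near the red cell-like level in control. The thinned share of ALMF-like cells with *Notum* was 16.0% for control and 4.72% for *Gli1 HHIPCKO* (23.4% and 5.46% unthinned), and that of DMF-like cells 4.07% and 0.199% (5.32% and 0.350% unthinned). Thinned red cell-like cells had 0.866% and 0.459% (4.08% and 2.15% unthinned).

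The *Notum* difference was smaller within ALMF-like clusters. In the *Stc1* cluster of ALMF-like cells *Notum* was at 152 CPM for control and 81.1 CPM in the 67 *Gli1 HHIPCKO* cells, log2 ratio -0.90 (-1.75 to -0.17), and in the *Fos* cluster at 37.0 and 36.8 CPM. The *Lnx1* cluster, which held most *Gli1 HHIPCKO* ALMF-like cells, had 18.3 CPM. Within the ALMF-like clusters that held both libraries the difference was below 2-fold, although the interval of the *Stc1* cluster reaches past it. In the *Efnb2* cluster of DMF-like cells *Notum* had 22.3 CPM for control and no UMI in the 45 *Gli1 HHIPCKO* cells, but 3 UMIs there would be 30.3 CPM, so these few cells do not show whether *Notum* was lower. *Notum* in ALMF-like cells stayed past 2-fold under 13 of 16 alternatives, the smallest difference being -0.40 with immediate early genes held out of clustering.

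*Wif1* (ENSMUSG00000020218, chr10:121033960-121100650, plus strand), a secreted protein that binds Wnt ligands, was at 35.5 CPM from 120 UMIs for control and 4.12 CPM from 24 UMIs for *Gli1 HHIPCKO* in DMF-like cells, and the log2 ratio was -3.11 (-3.80 to -2.47). In ALMF-like cells it was at 15.3 CPM from 76 UMIs for control and 3.70 CPM from 11 UMIs for *Gli1 HHIPCKO*, a ratio of -2.05 (-3.11 to -1.13). It was lower in *Gli1 HHIPCKO* in both classes, and above the red cell-like level of 0.730 and 0.684 CPM in both libraries. The thinned share of DMF-like cells with *Wif1* was 6.31% for control and 0.928% for *Gli1 HHIPCKO* (6.81% and 1.17% unthinned), against 0.433% and 0.459% of thinned red cell-like cells (0.408% and 0.429% unthinned). *Wif1* was at 35.6 CPM in the control cells of the *Efnb2* cluster and had no UMI in its *Gli1 HHIPCKO* cells, too few to show a difference. In the *Fos* cluster of ALMF-like cells it was at 20.5 CPM for control from 36 UMIs and had no UMI for *Gli1 HHIPCKO*, at least 1.85-fold lower with 3 UMIs put in place of 0. *Wif1* was at 5.25 CPM in the *Gli1 HHIPCKO* cells of the *Ace* cluster. In ciliated-like cells, its highest class, *Wif1* was at 119 CPM for control and 96.9 CPM for *Gli1 HHIPCKO* (log2 ratio -0.30, -0.75 to 0.14). That interval includes 0 and leaves out a 2-fold difference, so a smaller difference in these cells was neither shown nor excluded. The ALMF-like call held under 12 of 16 alternatives. With each library clustered on its own the ratio was -0.35, from 14 and 12 UMIs. A stricter cell filter left 60 *Gli1 HHIPCKO* ALMF-like cells and holding immediate early genes out of clustering left 54, none with a *Wif1* UMI, so the values of 0.16 and 0.89 obtained there with 3 UMIs in place of 0 do not show a direction.

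**Figure D3:**
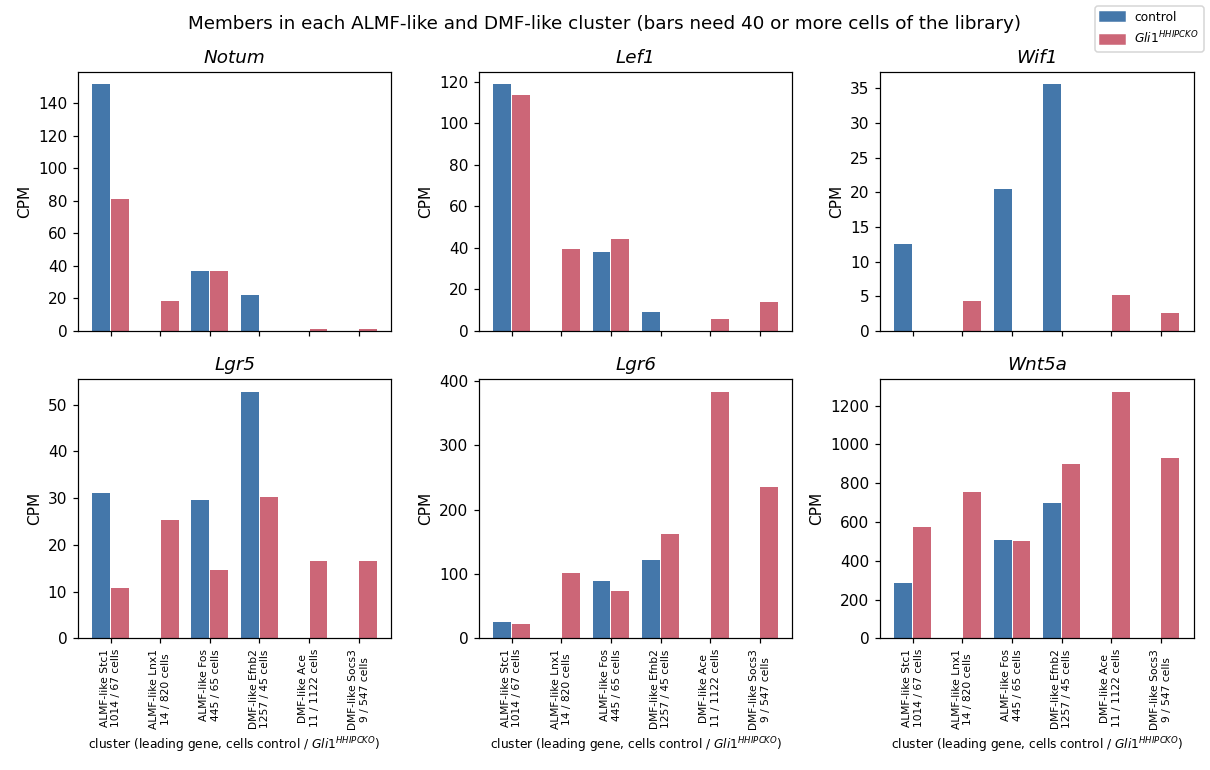
CPM (vertical axes, from 0) of *Notum*, *Lef1*, *Wif1*, *Lgr5*, *Lgr6* and *Wnt5a* in each ALMF-like and DMF-like cluster (horizontal axis, with its leading gene and cells per library), blue for control and red for *Gli1 HHIPCKO*; bars need 40 or more cells of a library. *Lef1* had similar bars in the *Stc1* cluster (119 and 114 CPM), and the *Gli1 HHIPCKO* side of the *Efnb2*, *Stc1* and *Fos* clusters is 45 to 67 cells.

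*Sfrp1* (ENSMUSG00000031548, chr8:23411502-23449632, plus strand), a secreted Frizzled-like protein that binds Wnts, was called in ALMF-like cells only near background. It was at 3.42 CPM from 17 UMIs for control and 13.8 CPM from 41 UMIs for *Gli1 HHIPCKO* in ALMF-like cells, and the log2 ratio was 2.01 (1.16 to 2.92), and at 10.1 CPM for control and 17.2 CPM for *Gli1 HHIPCKO* in DMF-like cells (log2 ratio 0.77, 0.20 to 1.38). The red cell-like level was 4.38 CPM for control and 10.9 CPM for *Gli1 HHIPCKO*, so the ALMF-like values were close to background in both libraries. In peribronchial and airway smooth muscle-like cells, where *Sfrp1* fell short of 50 UMIs and was looked at after its values were seen, 4 UMIs in control and 42 in *Gli1 HHIPCKO* gave 6.50 CPM for control and 53.7 CPM for *Gli1 HHIPCKO*, and 2.61% and 14.4% of cells had a UMI (1.49% and 10.4% after thinning, with 19 and 34 cells left out). Mesothelial-like cells had most *Sfrp1*, at 327 CPM for control and 218 CPM for *Gli1 HHIPCKO* (log2 ratio -0.59, -0.83 to -0.34).

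*Sfrp2*, of the same family, was at 1590.1 CPM from 1805 UMIs for control and 2093 CPM from 2095 UMIs for *Gli1 HHIPCKO* in mesothelial-like cells, and the log2 ratio was 0.40 (0.31 to 0.49), and made up 78.4% and 85.1% of the antagonist UMIs there. It was also at 0.730 CPM for control and 39.7 CPM for *Gli1 HHIPCKO* in red cell-like cells, from 1 and 58 UMIs. The level read as background thus differed between the libraries, and no *Sfrp2* difference is read elsewhere. *Sfrp4* was called in adventitial fibroblast-like cells, at 68.0 CPM from 86 UMIs for control and 30.5 CPM from 49 UMIs for *Gli1 HHIPCKO*, a ratio of -1.16 (-1.69 to -0.63), and the call held under 8 of 13 alternatives. *Dkk3*, a Dickkopf relative whose action on Wnt is not settled, was the most widespread antagonist, at 493 CPM for control and 562 CPM for *Gli1 HHIPCKO* in pericyte-like cells (log2 ratio 0.19, 0.01 to 0.37) and 427 CPM for control and 422 CPM for *Gli1 HHIPCKO* in ALMF-like cells (log2 ratio -0.02, -0.12 to 0.08). It differed little in these classes. The share of *Dkk3* among the antagonist UMIs of ALMF-like cells was 75.8% for control and 90.2% for *Gli1 HHIPCKO*. *Dkk1*, *Dkk2* and *Sfrp5* had fewer than 50 UMIs in every class, and *Dkk4* had none.

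Of the transcription factors, *Lef1* (ENSMUSG00000027985, chr3:131110471-131224356, plus strand), which binds β-catenin at target genes and is itself a target, was at 89.8 CPM (81.6 to 98.5) for control and 44.4 CPM (37.1 to 52.6) for *Gli1 HHIPCKO* in ALMF-like cells, and the log2 ratio was -1.02 (-1.31 to -0.73). The thinned share of these cells with *Lef1* was 14.4% and 7.38% (23.1% and 10.2% unthinned), against 0.433% and 0.459% of red cell-like cells (1.63% and 1.72% unthinned). *Lef1* was lower in *Gli1 HHIPCKO* by a margin just past 2-fold. Within clusters that held enough of it in both libraries it was not: the *Stc1* cluster had 119 and 114 CPM, the *Fos* cluster 38.1 and 44.2 CPM, with log2 ratios of -0.06 (-0.77 to 0.57) and 0.21 (-0.81 to 1.11), and the *Lnx1* cluster of *Gli1 HHIPCKO* had 39.3 CPM. The class difference in *Lef1* was thus not found within these clusters, and it passed 2-fold under 8 of 16 alternatives. Its direction turned under 2 of them, to 0.40 at resolution 2 and 0.046 with immediate early genes held out of clustering. *Lef1* was higher in pericyte-like cells, at 149.5 CPM for control and 154 CPM for *Gli1 HHIPCKO* (log2 ratio 0.05, -0.29 to 0.39), and was low in DMF-like cells, at 9.18 CPM for control and 8.94 CPM for *Gli1 HHIPCKO*. *Tcf7*, a related factor, was at 101 CPM for control and 112 CPM for *Gli1 HHIPCKO* in pericyte-like cells (log2 ratio 0.14, -0.26 to 0.56) and 103 CPM for control and 90.8 CPM for *Gli1 HHIPCKO* in ALMF-like cells (log2 ratio -0.19, -0.40 to 0.03), without a 2-fold difference.

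The feedback targets gave no call. *Axin2* (ENSMUSG00000000142, chr11:108920349-108950783, plus strand), part of the complex that degrades β-catenin and the most used readout of the pathway, was at 62.6 CPM (55.8 to 70.0) for control and 52.1 CPM (44.2 to 61.0) for *Gli1 HHIPCKO* in ALMF-like cells, and the log2 ratio was -0.26 (-0.55 to 0.02). It was at 56.0 CPM for control and 41.4 CPM for *Gli1 HHIPCKO* in DMF-like cells (log2 ratio -0.43, -0.72 to -0.15), at 63.3 CPM for control and 51.1 CPM for *Gli1 HHIPCKO* in alveolar fibroblast-like cells (log2 ratio -0.31, -0.62 to 0.01), and at 12.9 CPM for control and 16.9 CPM for *Gli1 HHIPCKO* in AT2-like cells (log2 ratio 0.39, 0.12 to 0.67). These *Axin2* ratios were all below 2-fold. Of the stromal classes given here, only DMF-like cells had an interval wholly on the lower side. Red cell-like cells had 5.11 CPM for control and 12.3 CPM for *Gli1 HHIPCKO*, so no direction is read in AT2-like cells. The ALMF-like ratio turned to 0.59 under the stricter cell filter, so no direction is read for *Axin2* in that class. *Nkd1* (ENSMUSG00000031661, chr8:88521354-88594884, plus strand), which binds Dishevelled and dampens Wnt signaling, was highest in peribronchial and airway smooth muscle-like cells, at 294 CPM for control and 337 CPM for *Gli1 HHIPCKO* (log2 ratio 0.20, -0.08 to 0.48). It was at 105 CPM for control and 175 CPM for *Gli1 HHIPCKO* in DMF-like cells (log2 ratio 0.73, 0.56 to 0.91), at 124 CPM for control and 173 CPM for *Gli1 HHIPCKO* in AT2-like cells (log2 ratio 0.48, 0.40 to 0.57), and at 107 CPM for control and 106 CPM for *Gli1 HHIPCKO* in ALMF-like cells (log2 ratio -0.02, -0.22 to 0.19). *Nkd1* was thus higher in *Gli1 HHIPCKO* DMF-like cells, but by less than 2-fold. *Nkd2* was low, at 9.53 CPM for control and 7.89 CPM for *Gli1 HHIPCKO* in alveolar fibroblast-like cells (log2 ratio -0.27, -1.09 to 0.61).

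A list of 54 other Wnt pathway genes, from Wnt secretion to β-catenin turnover and planar polarity, was read in the same way. In ALMF-like cells 0 of 44 were at least 2-fold higher and 1 lower, against 2.76% and 1.65% of all genes, and in DMF-like cells 1 and 1 of 43, against 2.94% and 2.2%. In alveolar fibroblast-like cells it was 0 and 0 of 43, against 1.91% and 1.95%, and in AT2-like cells 0 and 1 of 40, against 1.5% and 1.06%. Adventitial fibroblast-like cells had 2 of 33 higher, *Lrp4* and *Btrc*, against 3.08% of all genes, and mesothelial-like cells 1 of 26 lower, *Cd44*, against 1.47%. Their median log2 ratios in the myofibroblast classes were 0.037 and 0.0034. The exceptions among the first 4 classes were *Myc*, which is also on the list of immediate early genes, at 65.0 CPM for control and 20.2 CPM for *Gli1 HHIPCKO* in ALMF-like cells (log2 ratio -1.69, -2.11 to -1.29), 31.1 CPM for control and 65.3 CPM for *Gli1 HHIPCKO* in DMF-like cells (log2 ratio 1.07, 0.76 to 1.40) and 3.00 CPM for control and 1.02 CPM for *Gli1 HHIPCKO* in AT2-like cells (log2 ratio -1.56, -2.46 to -0.72). *Tnfrsf19*, a membrane receptor and Wnt target, was at 213 CPM for control and 104 CPM for *Gli1 HHIPCKO* in DMF-like cells (log2 ratio -1.03, -1.19 to -0.87). *Myc* thus had opposite directions in the myofibroblast classes, as the sum of that list did, and neither can be told apart from the make-up of the classes.

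Several ligand genes are neighbours in the genome. *Wnt3a* and *Wnt9a* lie 16175 bases apart on chromosome 11, *Wnt6* and *Wnt10a* 6193 bases apart on chromosome 1, *Wnt9b* and *Wnt3* 24328 bases apart on chromosome 11, and *Wnt10b* and *Wnt1* 11706 bases apart on chromosome 15. Within the pairs the counts were unequal: over both libraries *Wnt9a* had 1398 UMIs and *Wnt3a* 17, and *Wnt6* had 232 UMIs and *Wnt10a* 4. The other pairs were hardly detected, with 0 and 6 UMIs for *Wnt9b* and *Wnt3*, and 5 and 4 for *Wnt10b* and *Wnt1*.

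Promoters of 35 of the 53 members were in the RefSeq table for GRCm38.p6, 42 promoters in all, each with 250 bases before the annotated start and 50 from it on. They were searched on both strands for the TCF/LEF core CTTTGAA or CTTTGAT and for the GLI motif GACCACCCA, GLI proteins being the factors of hedgehog signaling. CTTTGAA was found in 1 member promoter, that of *Dkk1*, and in 5.14% of the 32851 promoters of the table, and CTTTGAT in 2, those of *Wnt5b* and *Wnt11*, and in 3.73% of the table. Either was in 7.14% of the member promoters and in 8.65% of all, so the members did not hold the core more often. GACCACCCA was in none of the 42 and in 0.253% of all. A match is a description of letters, not a binding site or a cause. The promoters with a match are shown with the match in capitals, *Wnt11* (chr7:98834862-98835161, plus strand), *Wnt5b* (chr6:119449337-119449636, minus strand) and *Dkk1* (chr19:30549447-30549746, minus strand); in *Wnt11* the core is on the other strand and reads ATCAAAG.
Wnt11: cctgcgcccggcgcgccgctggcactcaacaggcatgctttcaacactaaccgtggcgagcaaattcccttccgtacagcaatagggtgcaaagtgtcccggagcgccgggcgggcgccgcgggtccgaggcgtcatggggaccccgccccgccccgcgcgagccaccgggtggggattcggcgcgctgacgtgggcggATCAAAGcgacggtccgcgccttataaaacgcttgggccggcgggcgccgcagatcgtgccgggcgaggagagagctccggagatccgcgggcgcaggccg
Wnt5b: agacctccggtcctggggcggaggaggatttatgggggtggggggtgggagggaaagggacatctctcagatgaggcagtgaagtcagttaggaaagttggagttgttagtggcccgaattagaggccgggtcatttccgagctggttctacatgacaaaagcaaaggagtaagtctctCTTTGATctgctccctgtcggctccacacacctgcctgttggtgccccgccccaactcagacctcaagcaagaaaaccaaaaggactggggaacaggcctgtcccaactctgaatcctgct
Dkk1: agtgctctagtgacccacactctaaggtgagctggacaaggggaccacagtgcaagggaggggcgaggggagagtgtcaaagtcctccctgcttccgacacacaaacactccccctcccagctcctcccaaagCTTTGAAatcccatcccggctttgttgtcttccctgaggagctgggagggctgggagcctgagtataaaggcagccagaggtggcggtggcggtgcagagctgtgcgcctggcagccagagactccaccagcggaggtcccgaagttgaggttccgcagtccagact

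The promoters of *Lgr6* (chr1:135105227-135105526, minus strand) and *Wif1* (chr10:121033754-121034053, plus strand) are shown because these members differed most in opposite directions in DMF-like cells among the called members with a table entry; capitals mark the 50 bases from the annotated start. Neither held any of the 3 motifs in this window. *Notum*, *Lgr5*, *Wnt5a*, *Sfrp1*, *Sfrp4* and *Fzd8* were called but had no entry.
Lgr6: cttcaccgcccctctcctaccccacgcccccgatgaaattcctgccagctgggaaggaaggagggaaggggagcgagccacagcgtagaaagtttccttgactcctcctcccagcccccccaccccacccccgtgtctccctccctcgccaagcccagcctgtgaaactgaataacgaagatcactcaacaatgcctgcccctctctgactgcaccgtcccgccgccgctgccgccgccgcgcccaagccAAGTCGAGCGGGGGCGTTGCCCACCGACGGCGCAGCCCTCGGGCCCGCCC
Wif1: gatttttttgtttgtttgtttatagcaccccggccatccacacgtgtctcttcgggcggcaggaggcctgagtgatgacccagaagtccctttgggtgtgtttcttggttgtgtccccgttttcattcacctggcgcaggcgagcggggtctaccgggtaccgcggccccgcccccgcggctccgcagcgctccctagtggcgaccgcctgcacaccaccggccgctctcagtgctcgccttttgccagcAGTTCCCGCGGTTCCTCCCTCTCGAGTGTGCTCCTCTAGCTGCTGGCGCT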

How the data were processed

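UMI counts per gene and cell were used as deposited by the authors, 1 matrix for each library from lungs of 1 control and 1 *Gli1 HHIPCKO* mouse. The authors aligned to mm10 with Cell Ranger, version 6.1.0 by the file header and the methods of the study, although the submitters' processing notes name 3.1.0. Kept were cells with 200 to 6000 genes and no more than 10% of UMIs from mitochondrial genes. Values were log-normalized and clustered with Leiden (leidenalg 0.10.2, igraph 0.11.9; 2000 variable genes, 30 components, 20 neighbours, resolution 1.0), then once more over stromal cells, with python 3.11.15, numpy 2.4.6, scipy 1.17.1 and scikit-learn 1.9.0; matplotlib 3.10.9 drew the figures. Held out of clustering were 127 genes (members, other Wnt pathway genes, genes the study reads and sex-linked genes). Clusters were named from 18 marker lists; the thresholds of the naming rule were set after the clusters were seen. No doublet caller was used; an alternative left out the 953 control and 1174 *Gli1 HHIPCKO* cells that scored highest against simulated doublets. UMIs were summed per class and library and given as CPM. Named were members at least 2-fold apart with 50 or more UMIs, and each member's highest class among those where it had 50 or more UMIs. *Wnt7b*, *Fzd6*, *Fzd8*, *Lgr4*, *Rspo3* and *Nkd2* had a higher CPM over both libraries in a class with fewer UMIs. Also named were *Wnt2*, *Hhip*, and other pathway genes at least 2-fold apart in ALMF-like, DMF-like, alveolar fibroblast-like or AT2-like cells. Gene positions came from GENCODE vM21. Calculations were checked on simulated data. Members and lists were chosen with earlier results of these data known. The alternatives varied the cell filter, clustering, scaling, UMI minimum and fold.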

Additional observations from a re-analysis of the deposited data

How the results depend on the processing

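Counts of members in the 4 classes of the design were recomputed under 14 listed alternatives and 4 chosen after seeing the data. Of 130 such counts 87 were within 1.5 times the value reported and 43 were not; of 668 ratios of named members 593 stayed within their counting interval. The sign differed from the reported ratio in 23 of the 668, of 16 named ratios; 7 of the 23 were of called ratios, and 5 rest on 3 UMIs put in place of a lower count. The ratios of *Notum*, *Wif1*, *Lgr5* and *Fzd4* in DMF-like cells and *Wnt5a* in peribronchial and airway smooth muscle-like cells passed 2-fold under every alternative that gave a value, and *Lgr6* in DMF-like cells under 13 of 15, the lowest being 0.92. *Sfrp1* in ALMF-like cells also passed 2-fold in each, but from 5 control and 0 *Gli1 HHIPCKO* UMIs with immediate early genes held out, which shows no direction. With the red cell-like level subtracted no control UMIs were left, so the *Sfrp1* value of 2.23 there also rests on 3 UMIs put in place. The ALMF-like class varied in size, with 54 to 952 *Gli1 HHIPCKO* cells depending on the setting; the cause of the changes was not tested.

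In ALMF-like cells, 2 members were higher and 4 lower as reported (2.76% and 1.65% of all genes). The number higher was 0 with at least 500 genes and at most 5% mitochondrial UMIs per cell, 1 at resolution 2, with genes centred within libraries, with immediate early genes held out of clustering or without the *Lnx1* cluster (added), 4 as a mean over cells (3.19% of all genes) and 6 at a fold of 1.5 (7.92%). The number lower was 2 with the strict filter, with libraries clustered separately or with immediate early genes held out, and 1 at resolution 0.5 or 2, without doublets or after thinning. Of all genes in the class, 8.64% were lower with the strict filter, 7.8% at resolution 2 and 9.38% with immediate early genes held out. *Wif1* changed to 0.16 with the strict filter and 0.89 with immediate early genes held out, both from 0 *Gli1 HHIPCKO* UMIs, and *Lef1* to 0.40 at resolution 2 and 0.046 with immediate early genes held out.

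In DMF-like cells, 1 was higher and 4 lower as reported (2.94% and 2.2% of all genes). The number higher was 2 with all deposited cells, the strict filter, resolution 0.5 or 2, doublets left out, immediate early genes held out or thinning, 3 with ALMF-like and DMF-like cells pooled (added; 3.37% of all genes) and 6 at a fold of 1.5 (7.31%); the number lower was 2 after thinning. In alveolar fibroblast-like cells, 1 and 1 as reported, the number higher was 0 without doublets, after thinning or with the red cell-like level subtracted (added), and 2 as a mean over cells, with a minimum of 20 UMIs or at a fold of 1.5 (2.95%, 3.1% and 7.51% of all genes). Without doublets *Lgr6* lost its call by falling to 25 UMIs while its ratio was 2.66. The number lower was 2 without doublets, 0 after thinning, 4 with a minimum of 20 UMIs or a fold of 1.5, and 6 with the red cell-like level subtracted, when 3.2% of all genes were lower at the minimum of 20 UMIs, 7.73% at the fold of 1.5 and 24.7% after the subtraction. In AT2-like cells, also 1 and 1, the number higher was 0 after thinning. The number lower was 0 with the strict filter, genes centred, doublets left out, a mean over cells or thinning, 3 at a fold of 1.5 and 2 with the red cell-like level subtracted, against 4.57% and 32.1% of all genes. That subtraction also changed *Lgr6* to -1.89 in alveolar and -0.34 in adventitial fibroblast-like cells and *Wnt5a* to -0.19 in AT2-like cells, all on the floor of 3 UMIs.

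No value was given for mesothelial-like cells with the strict filter, at resolution 0.5, with libraries clustered separately or without doublets, for vascular smooth muscle-like cells at resolution 0.5 or with libraries clustered separately, and for peribronchial and airway smooth muscle-like cells with genes centred. No paired analysis was possible because each condition had 1 mouse.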

Other observations

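An unnamed stromal cluster led by *C1qtnf3* and *Adh7*, with 186 control and 109 *Gli1 HHIPCKO* cells, had more *Wif1*, *Notum* and *Lgr5* than any ALMF-like or DMF-like cluster of the same library. *Wif1* was at 232 CPM in its control and 249 CPM in its *Gli1 HHIPCKO* cells, *Notum* at 199 and 132 CPM, and *Lgr5* at 67.3 and 66.0 CPM. The 2-fold lower levels of these members in *Gli1 HHIPCKO* myofibroblast-like cells were not seen in this cluster. In the alveolar fibroblast-like cluster led by *Cpm*, with 60 and 186 cells, 208 of the 246 were among those nearest to simulated doublets, so its values may be those of mixed cells. *Notum* was at 73.9 and 21.0 CPM (log2 ratio -1.81 (-2.64 to -0.99)), *Wif1* at 29.0 and 0.808 CPM from 11 and 1 UMIs, and *Lgr5* at 15.8 and 5.65 CPM from 6 and 7 UMIs, with an interval that includes 0 (-1.49 (-3.28 to 0.36)). *Lef1* was at 23.7 and 6.46 CPM from 9 and 8 UMIs.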
